A study of Mus musculus with 6 samples.

Results

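The genes described here are 8 matrix metalloproteinases (Mmp2, Mmp3, Mmp9, Mmp10, Mmp12, Mmp13, Mmp14 and Mmp19) and 2 of their tissue inhibitors (Timp1 and Timp3). They were taken by symbol from a table of read counts for 55487 mouse genes, and all 10 were found and had enough counts to be tested. The libraries came from whole dorsal skin on day 2, with 3 from skin given DPCP and 3 from control skin. DPCP, or diphenylcyclopropenone, is a chemical that sensitizes skin on contact and sets off allergic inflammation mediated by T cells. The labels used here name no strain, sex or age, no treatment of the control skin and no animal for each sample. A p-value here thus sets the group difference only against the spread among these samples, and that spread may be technical. The study is about macrophages and the regrowth of hair that contact hypersensitivity induces, and DPCP and control skin were compared on the day sampled.

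Matrix metalloproteinases (MMPs) are zinc-dependent enzymes that cut collagens, laminins, elastin and other proteins outside the cell, and that also release or inactivate cytokines. Most are secreted as inactive precursors and are opened by other proteases, and the tissue inhibitors of metalloproteinases (TIMPs) block the active enzymes. In skin they are known from wound repair, leukocyte entry and remodelling around the hair follicle. RNA levels say nothing of how much enzyme was active.

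Of the 10 genes, 8 were higher in DPCP skin, 1 was lower and 1 was not called by edgeR's quasi-likelihood test at a Benjamini-Hochberg adjusted p under 0.05. Among all 18259 genes tested, 22.8% were called higher and 23.3% lower, 46.1% in either direction. The inhibitors moved in opposite directions: Timp1 had the largest increase of the 10 (27.3-fold) and Timp3 the only decrease (3.15-fold lower in DPCP skin). The stromelysin gene Mmp3, the most abundant MMP of DPCP skin per length, was 4.64-fold higher. The collagenase gene Mmp13 was 12.3-fold higher, but this rested in part on DPCP replicate 2, without which its log2 fold change was 2.36 in place of 3.62. The median log2 fold change of the 10 was 1.74, and 1.10 without DPCP replicate 2, against -0.01 over all tested genes with all libraries. At least a doubling was fitted for 7 of the 10 and for 8.55% of all tested genes.

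**Figure D1:**
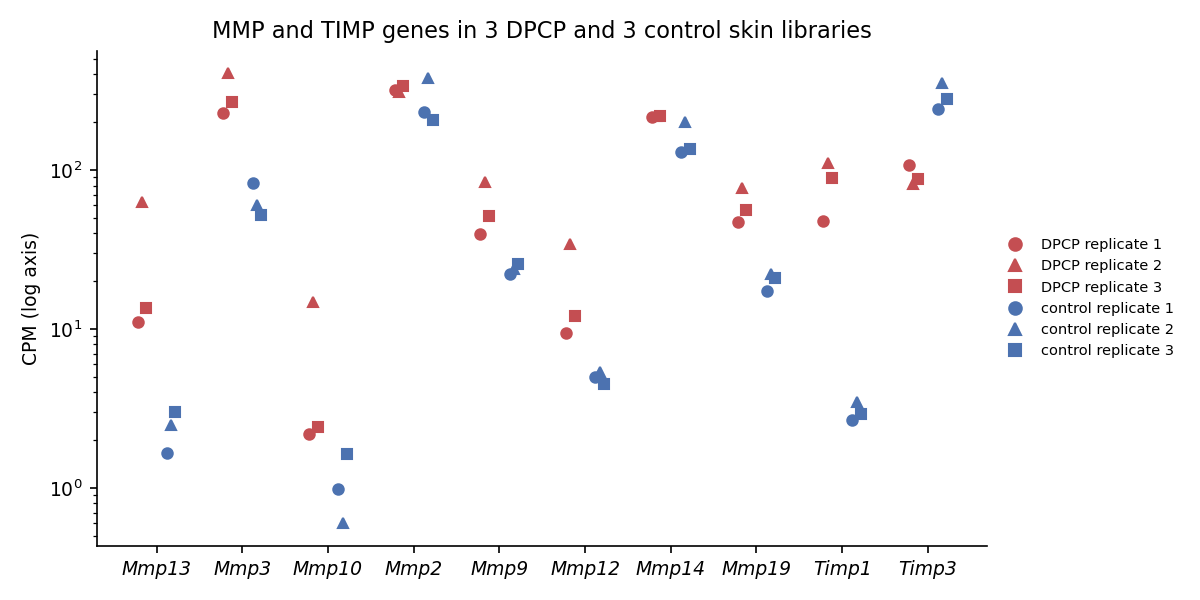
Level of each of the 10 genes in every library, in CPM (counts scaled to a common library size, with TMM factors) on a log axis, with DPCP libraries in red left of control libraries in blue and the marker shape giving the replicate. For 8 genes every DPCP library lies above every control library, for Timp3 every one lies below, and for Mmp2 the groups overlap, while Mmp10, Mmp12 and Mmp13 are far higher in DPCP replicate 2 than in the other DPCP libraries.

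The libraries held 31609336 to 38846787 counts in the DPCP group and 28346992 to 33468828 in control, and no member had under 18 counts in any library. Skin keratins were abundant throughout: the 7 keratinocyte markers together took 38500 to 46470 CPM in DPCP and 18660 to 23690 CPM in control libraries, with 4 called higher and 2 lower. Skeletal muscle markers were lower in DPCP skin, with 5 of 5 tested genes called lower and summed levels of 2235 to 4466 CPM in DPCP against 8508 to 11080 CPM in control libraries. The shares of all tested genes called were 22.8% higher and 23.3% lower. DPCP replicate 2 stood apart from the other DPCP libraries in its share of ribosomal RNA. The ribosomal RNA gene CT010467.1 took 2.46% of its counts, against 0.420% and 0.489% in DPCP replicates 1 and 3 and 0.167% to 0.285% in control. By the correlation of log2 CPM over all tested genes DPCP replicate 2 did not stand apart, at 0.9858 and 0.9866 with replicates 1 and 3. The correlation between DPCP replicates 1 and 3 was 0.9851. By a chi-square statistic of the counts, averaged over genes with enough counts, DPCP replicate 2 did stand apart. It was 71.27 and 62.81 for DPCP replicate 2 with replicates 1 and 3, and 39.53 between DPCP replicates 1 and 3. In whole skin, fewer cells of a type and less RNA per cell cannot be told apart.

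Promoter sequences are shown for the 4 members that lie in a cluster on chromosome 9 and were all called higher, and for Timp1, the gene with the largest increase. Each stretch holds the 120 bases just before an annotated start, from the RefSeq promoter table on GRCm38.p6, all on the plus strand and written 5′ to 3′. Capitals mark matches to TGANTCA, the letters bound by AP-1 factors, and to TATAAA, the TATA box. Mmp12 has 2 RefSeq starts. The stretch shown is that of the second, which lies inside the gene, because the 120 bases before the first overlap an annotated exon of Mmp12. The stretch before the first start, which is not shown, held neither TGANTCA nor TATAAA.
Mmp13, chr9:7272394-7272513: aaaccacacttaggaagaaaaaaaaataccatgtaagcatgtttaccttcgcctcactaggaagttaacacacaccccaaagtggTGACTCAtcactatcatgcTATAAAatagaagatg
Mmp12, chr9:7347254-7347373: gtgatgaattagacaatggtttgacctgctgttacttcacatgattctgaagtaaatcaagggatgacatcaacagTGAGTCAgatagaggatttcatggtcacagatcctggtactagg
Mmp3, chr9:7445702-7445821: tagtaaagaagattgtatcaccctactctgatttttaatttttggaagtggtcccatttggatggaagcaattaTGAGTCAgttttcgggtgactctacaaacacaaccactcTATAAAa
Mmp10, chr9:7502222-7502341: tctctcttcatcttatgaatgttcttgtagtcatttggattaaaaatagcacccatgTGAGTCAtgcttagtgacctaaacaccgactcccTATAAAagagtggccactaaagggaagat
Timp1, chrX:20870046-20870165: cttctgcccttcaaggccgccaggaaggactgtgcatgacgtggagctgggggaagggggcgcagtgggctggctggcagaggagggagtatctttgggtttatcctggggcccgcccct

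Of the 10 members, 7 had a window in that table, Mmp12 with 2, and each window ran from 250 bases before to 50 bases after the start. TGANTCA, which reads the same on both strands, was present once in the windows of Mmp13, Mmp3, Mmp10 and the second start of Mmp12, with its first base at -35, -46, -63 and -44 from the start. TATAAA was present in the same 4 windows, at -16, -7 and -29 for Mmp13, Mmp3 and Mmp10 and 5 bases into the transcript for Mmp12. The windows of Mmp14, Timp1, Timp3 and the first start of Mmp12 held neither. Among the 32851 promoter windows of the table, 7.81% held TGANTCA on either strand and 13.6% held TATAAA. TTGCNNAA, the letters bound by C/EBP factors, was present in the windows of Mmp3, Mmp10 and the first start of Mmp12, and in 10.8% of all windows. TTCNNNGAA, the letters bound by STAT factors, was present in none of the 8 windows and in 8.30% of all windows. These matches describe letters and not bound sites. Only the 10 members were searched, so Mmp1b, Mmp1a, Mmp8 and Mmp27 of the same chromosome 9 cluster were not. The 4 genes with TGANTCA belong to the same family and cluster, so they are not independent draws from the windows.

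Mmp13 encodes collagenase 3, the main enzyme for fibrillar collagen in the mouse (ENSMUSG00000050578, GRCm38 chromosome 9, 7272514 to 7283331, plus strand). It was at 11.1, 63.4 and 13.5 CPM in DPCP replicates 1, 2 and 3, and at 1.67, 2.50 and 2.98 CPM in control replicates 1, 2 and 3. The groups did not overlap, and DPCP replicate 2 was 5.16-fold above the mean of the other DPCP libraries. The log2 fold change was 3.62 ± 0.69 (SE, n = 3 each; edgeR adjusted p = 0.00308) with all libraries and 2.36 without DPCP replicate 2 (edgeR adjusted p = 0.000438).

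The stromelysins Mmp3 and Mmp10 cut laminins, proteoglycans and other matrix proteins and activate other MMP precursors. Mmp3 (ENSMUSG00000043613, chromosome 9, 7445822 to 7455975, plus strand) was at 228, 407 and 270.2 CPM across the DPCP libraries and at 82.5, 60.5 and 52.1 CPM in the control libraries. Every DPCP library was above every control library. Its log2 fold change was 2.22 ± 0.24 (SE; edgeR adjusted p = 0.000197). Mmp10 (ENSMUSG00000047562, chromosome 9, 7502352 to 7510240, plus strand), which in skin is known from migrating keratinocytes, was at 2.19, 14.7 and 2.42 CPM across the DPCP libraries and at 0.988, 0.600 and 1.64 CPM in the control libraries. DPCP replicate 2 alone was far above control, and the other DPCP libraries were just above the highest control library. Its log2 fold change was 2.58 ± 0.78 (SE; edgeR adjusted p = 0.0248). Without DPCP replicate 2 the log2 fold change of Mmp10 was 1.09 and was not called (edgeR adjusted p = 0.0635), nor was Mmp10 called without control replicate 1 or control replicate 2 (edgeR adjusted p = 0.0726 and 0.0876) or by limma voom (adjusted p = 0.0963).

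The gelatinases Mmp2 and Mmp9 cut denatured collagen and collagen of the basement membrane. Mmp9 (ENSMUSG00000017737, chromosome 2, 164940780 to 164955850, plus strand), which neutrophils, macrophages and keratinocytes make, was at 39.8, 84.4 and 51.5 CPM across the DPCP libraries and at 22.2, 23.8 and 25.5 CPM in the control libraries. The groups did not overlap, and the log2 fold change was 1.30 ± 0.24 (SE; edgeR adjusted p = 0.00284). Mmp2 (ENSMUSG00000031740, chromosome 8, 92827291 to 92853420, plus strand), a product of fibroblasts, was at 317, 309.8 and 339.6 CPM across the DPCP libraries and at 231, 377 and 208 CPM in the control libraries. Control replicate 2 lay above all DPCP libraries and the other control libraries below them, so the groups overlapped. The log2 fold change of Mmp2 was 0.24 ± 0.20 (SE; edgeR adjusted p = 0.354), and it was called higher only without control replicate 2 (0.57, edgeR adjusted p = 0.00512). The fibroblast marker sum was also highest in that library within control (6311 CPM, against 5493 and 5003 CPM in control replicates 1 and 3), and its part in the Mmp2 value was not tested.

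Mmp12, the macrophage metalloelastase, cuts elastin (ENSMUSG00000049723, chromosome 9, 7344381 to 7369499, plus strand). It was at 9.41, 34.4 and 12.1 CPM across the DPCP libraries and at 4.97, 5.37 and 4.54 CPM in the control libraries. The groups did not overlap, control libraries were close together, and DPCP replicate 2 was 3.20-fold above the mean of the other DPCP libraries. The log2 fold change was 1.92 ± 0.45 (SE; edgeR adjusted p = 0.00825), and 1.12 without DPCP replicate 2 (edgeR adjusted p = 0.00282). Exons of Mmp12 share 157 bases (2.17%) with Mmp1b on the other strand, and reads there were not counted for either gene.

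Mmp14 anchors in the cell membrane, cuts fibrillar collagen and activates the Mmp2 precursor (ENSMUSG00000000957, chromosome 14, 54431612 to 54445364, plus strand). It was at 216.5, 219 and 218 CPM across the DPCP libraries and at 130.0, 202 and 135 CPM in the control libraries. The DPCP libraries were nearly equal, and control replicate 2 came close to them. The log2 fold change was 0.48 ± 0.16 (SE; edgeR adjusted p = 0.0360), and the call was lost without any 1 of the libraries except control replicate 2 (0.38 to 0.49, edgeR adjusted p = 0.0640 to 0.113). It was also lost with upper-quartile scaling (adjusted p = 0.0518) and with library totals alone (0.0733).

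Mmp19 is a secreted MMP made in skin by keratinocytes, vessels and macrophages (ENSMUSG00000025355, chromosome 10, 128790910 to 128800824, plus strand). It was at 46.9, 77.1 and 56.1 CPM across the DPCP libraries and at 17.4, 22.3 and 20.9 CPM in the control libraries. The groups were well apart, and the log2 fold change was 1.57 ± 0.18 (SE; edgeR adjusted p = 0.000282). Its exons share 789 bases (22.3%) with Tmem198b on the other strand, so its level is uncertain. Tmem198b itself had 164, 204 and 180 counts in the DPCP libraries and 144, 185 and 174 in the control libraries, and was not called.

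Timp1, a secreted inhibitor of most MMPs that is induced in inflamed tissue, changed most (ENSMUSG00000001131, chromosome X, 20870166 to 20874735, plus strand). It was at 47.6, 111 and 88.8 CPM across the DPCP libraries and at 2.69, 3.47 and 2.92 CPM in the control libraries. The lowest DPCP library was more than 10 times the highest control library. The log2 fold change was 4.77 ± 0.32 (SE; edgeR adjusted p = 2.25e-05) and 4.49 without DPCP replicate 2. Timp3 binds to the matrix and also inhibits ADAM and ADAMTS proteases (ENSMUSG00000020044, chromosome 10, 86300372 to 86349506, plus strand). It was at 107, 82.1 and 88.4 CPM across the DPCP libraries and at 243, 351 and 280.3 CPM in the control libraries, again without overlap. The log2 fold change was -1.66 ± 0.16 (SE; edgeR adjusted p = 9.86e-05). Exons of Timp3 share 1733 bases (21.3%) with Syn3 on the other strand, so its level is uncertain, and Syn3 had 12 to 16 counts in the DPCP and 15 to 42 in the control libraries.

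**Figure D2:**
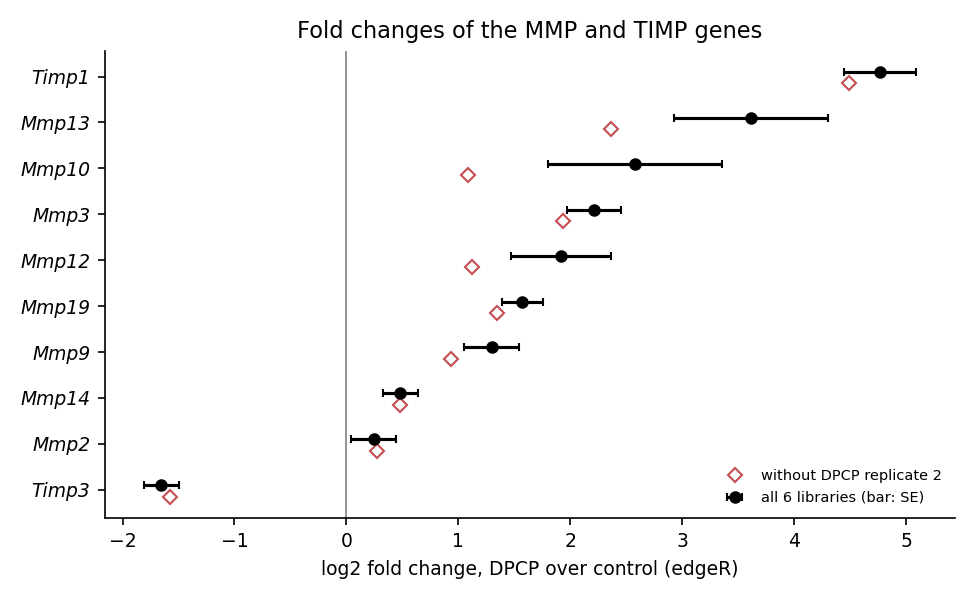
Log2 fold change of DPCP over control for each gene from edgeR (black points with bars of 1 SE, all 6 libraries), and the value without DPCP replicate 2 (open diamonds). Timp1 is highest at 4.77 and Timp3 lowest at -1.66, and leaving out DPCP replicate 2 moves Mmp10 to 1.09, Mmp12 to 1.12 and Mmp13 to 2.36.

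The groups did not overlap for 9 of the 10 genes, 8 with DPCP higher and 1 with DPCP lower, where 28.6% and 29.4% of all tested genes did not overlap in these directions (58.0% in either). Calls for 7 genes (Mmp3, Mmp9, Mmp12, Mmp13, Mmp19, Timp1 and Timp3) were made with every setting and every left-out library that was tried. Without DPCP replicate 2 there were 6 genes called higher and 1 lower, where 18.7% and 18.8% of all tested genes were called. DPCP replicate 2 held the highest DPCP level for 8 of the 10 genes, by little for Mmp14 (218.8 against 216.5 and 217.6 CPM). It was at least 2-fold above the mean of the other DPCP libraries for 3 of them (Mmp10, Mmp12 and Mmp13), and for 1.83% of all tested genes.

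Of 10 neutrophil markers, 6 had enough counts for a test and all 6 were called higher, while Ly6g, Mpo, Elane and Ltf were below the count filter. Their summed level was 454, 1212 and 718 CPM in DPCP replicates 1, 2 and 3, against 18.3 to 24.3 CPM in control, and no marker was at 0 in all libraries of a group. DPCP replicate 2 was also the library with the highest neutrophil marker sum. Of 10 macrophage markers, 4 were called higher and none lower, with summed levels of 2914, 4080 and 2404 CPM across the DPCP libraries and 1254 to 2165 CPM in the control libraries. Those called were Cd68, Mrc1, Itgam and Msr1, while Adgre1, Csf1r, Mertk, C1qa, C1qb and C1qc were not. Itgam shares 68.67% of its exon bases with another gene, so its level is uncertain. Fibroblast markers were called higher in 1 and lower in 2 of 8 cases, with summed levels of 4238 to 5438 CPM in DPCP and 5003 to 6311 CPM in control libraries, and the higher calls numbered 0 without DPCP replicate 2, control replicate 1 or control replicate 3, 2 without DPCP replicate 1 and 3 without control replicate 2. The part of these cells in the MMP and TIMP values was not tested. Among all tested genes 22.8% were called higher and 23.3% lower.

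Between genes, levels are compared in TPM, counts divided by the exon length of the deposited table and scaled to the same total in each library. In DPCP skin the order was Mmp3 (412 ± 82.8 TPM, SD, n = 3), Mmp2 (240.3 ± 33.2), Timp1 (228 ± 74.7), Mmp14 (91.5 ± 8.97), Mmp19 (41.9 ± 6.53), Mmp9 (40.4 ± 11.6), Timp3 (28.7 ± 6.33), Mmp13 (25.6 ± 23.3), Mmp10 (8.68 ± 8.88) and Mmp12 (6.15 ± 3.83). Library ranges of neighbours overlapped for Mmp2 and Timp1 and for every neighbouring pair from Mmp19 down to Mmp12, so their order is not resolved. In control skin the order was Mmp2 (236 ± 86.9 TPM, SD, n = 3), Mmp3 (105 ± 25.03), Timp3 (104 ± 22.4), Mmp14 (76.1 ± 21.8), Mmp9 (19.5 ± 1.29), Mmp19 (16.6 ± 2.37), Timp1 (9.91 ± 1.57), Mmp13 (2.59 ± 0.709), Mmp12 (1.99 ± 0.222) and Mmp10 (1.80 ± 0.839). There the ranges overlapped for Mmp3 and Timp3, Timp3 and Mmp14, Mmp9 and Mmp19, and among Mmp13, Mmp12 and Mmp10.

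**Figure D3:**
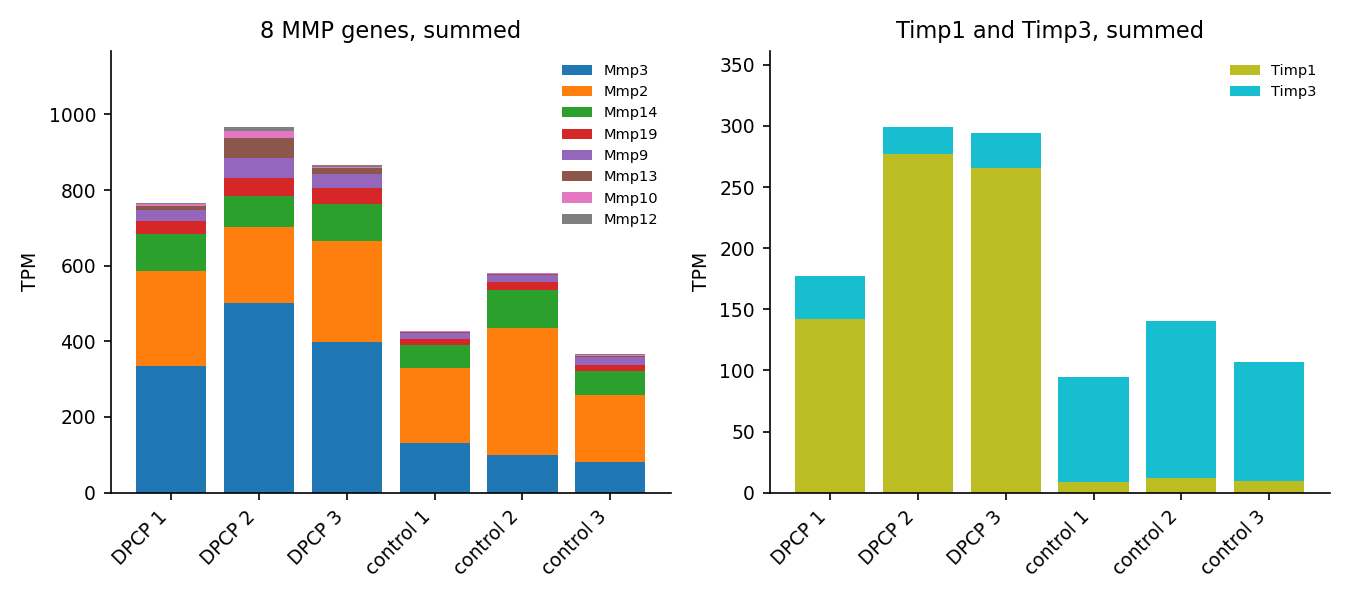
Summed TPM per library of the 8 MMP genes (left panel) and of Timp1 and Timp3 (right panel), each bar 1 library, DPCP libraries left of control libraries and colours giving the genes. The MMP sum is 766 to 968 TPM in DPCP and 366 to 582 TPM in control libraries, and Timp1 fills most of each DPCP bar whereas Timp3 fills most of each control bar.

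The 8 MMP genes together were at 766, 968 and 865 TPM in the DPCP libraries and at 429, 582 and 366 TPM in the control libraries. The groups did not overlap, and the difference in log2 means was 0.94 (exact 2-sided permutation test, p = 0.1, the smallest that 3 against 3 allows). Mmp3 made up 47.2% ± 4.02 of the MMP sum in DPCP and 23.5% ± 6.78 in control libraries (SD, n = 3 each), and Mmp2 28.2% ± 6.29 in DPCP and 50.4% ± 6.28 in control libraries. Without Mmp3 the difference of the sum was 0.40 on the log2 scale (exact permutation p = 0.4). Timp1 and Timp3 together were at 177, 299 and 294 TPM in the DPCP libraries and at 94.5, 141 and 107 TPM in the control libraries, a log2 difference of 1.152 (exact permutation p = 0.1).

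The make-up of the inhibitor pair turned over. The ratio of Timp1 to Timp3 in TPM was 4.07, 12.4 and 9.21 in the DPCP libraries and 0.102, 0.0905 and 0.0957 in the control libraries. Per length, Timp1 was the more abundant of the pair in every DPCP library and Timp3 in every control library, with a log2 difference of 6.34 (exact permutation p = 0.1). In CPM, without length, Timp1 was below Timp3 in DPCP replicate 1 (47.6 and 107 CPM) and close to it in DPCP replicate 3 (88.8 and 88.4 CPM). The ratio of the MMP sum to the TIMP sum was 4.32, 3.23 and 2.94 in the DPCP libraries and 4.54, 4.13 and 3.43 in the control libraries. These values overlapped, with a log2 difference of -0.22 (exact permutation p = 0.3), and of -0.75 without Mmp3 (exact permutation p = 0.1). The direction of this ratio and of the TIMP sum depends on gene length, since the table gives Timp3 8144 and Timp1 888 bases. In CPM the log2 difference of the TIMP sum was -0.74 and that of the ratio 1.65 (exact permutation p = 0.1 for each). The TIMP sum holds only Timp1 and Timp3. Timp2 was left out, at 298, 228 and 197 TPM in the DPCP libraries and 410, 639 and 438 TPM in the control libraries. It was above the TIMP sum in every control library and was lower in DPCP skin. The sum and the ratio thus do not describe all inhibitors. Neither was computed with Timp2, so their directions hold only for Timp1 and Timp3 and may differ with it.

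The cluster of MMP genes on chromosome 9 spans 427 kb (7272514 to 7699585) and holds 10 of the family, of which Mmp13, Mmp12, Mmp3 and Mmp10 are described above. Of its 8 genes with enough counts to be tested, 6 were called higher and none lower (among all tested genes 22.8% and 23.3%). These higher calls include those of Mmp13, Mmp12, Mmp3 and Mmp10, which were already counted among the members. Of the other tested genes, Mmp1b and Mmp8 were called higher, and Mmp27 and Mmp1a were not called. Mmp8, the neutrophil collagenase gene, had 133, 511 and 201 counts in the DPCP libraries and 0, 8 and 4 in the control libraries. Its log2 fold change was 5.97 ± 0.74 (SE; edgeR adjusted p = 0.000386), 5.32 without DPCP replicate 2 and 7.01 without control replicate 2. Mmp1b, a mouse collagenase-like gene next to Mmp12, had 50, 84 and 43 counts in the DPCP libraries and 0, 0 and 2 in the control libraries. Exons of Mmp1b share 157 bases (10.84%) with Mmp12 on the other strand, so the level of Mmp1b is uncertain. Its log2 fold change was 6.32 ± 0.70 (SE, edgeR adjusted p = 0.000206). The ratio of its library shares was 76.3, with a counting interval of 20.8 to 635 (95%, exact, taking reads as independent although mates of a pair were counted singly). That interval pools the libraries of each group and leaves out the spread between them.

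**Figure D4:**
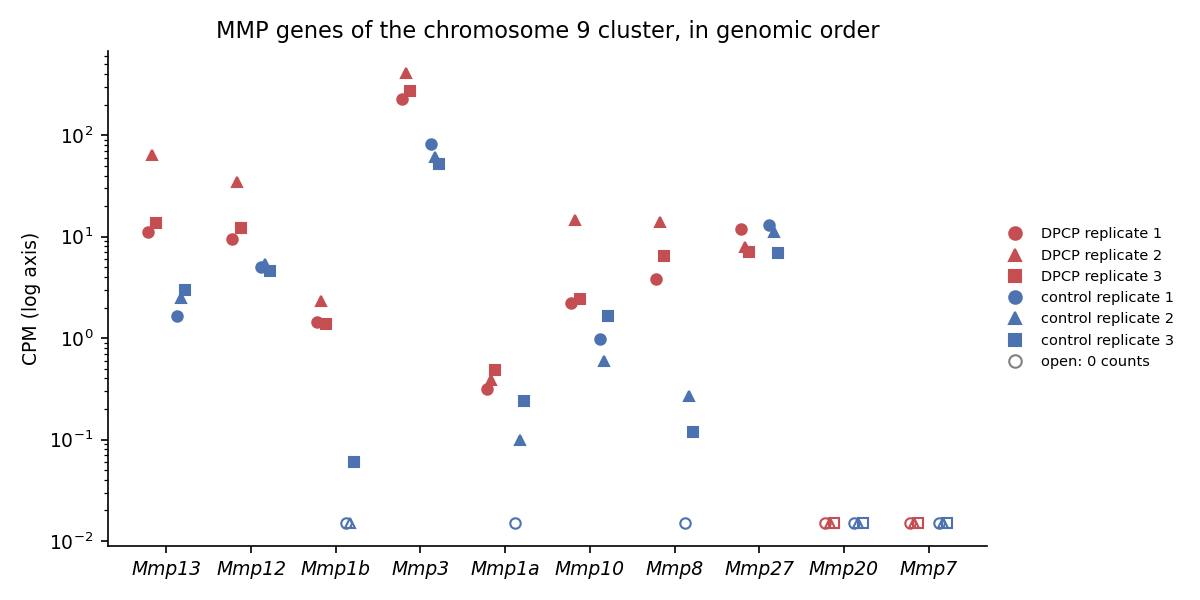
CPM on a log axis for the 10 MMP genes of the chromosome 9 cluster in their genomic order, with DPCP libraries in red left of control libraries in blue, marker shapes giving the replicate and open markers at the bottom standing for 0 counts. Mmp13, Mmp12, Mmp1b, Mmp3, Mmp1a, Mmp10 and Mmp8 are higher in every DPCP library than in every control library (Mmp1a was not called), Mmp27 overlaps, and Mmp20 and Mmp7 had no counts.

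The cluster was not uniform. Mmp27 lies next to Mmp8 and was at 11.8, 7.91 and 7.09 CPM across the DPCP libraries and at 13.1, 11.1 and 6.86 CPM in the control libraries (log2 fold change -0.21 ± 0.27, SE; edgeR adjusted p = 0.545). Mmp1a had 11, 14 and 15 counts in the DPCP libraries and 0, 3 and 8 in the control libraries, and was not called (edgeR adjusted p = 0.0819). Mmp20, the enamel protease gene, and Mmp7 had 0 counts in all libraries, which allows up to 0.0772 to 0.0949 CPM in the DPCP and 0.0896 to 0.106 CPM in the control libraries (3 counts of the total, counting error only).

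Of the 15 MMP genes that are not among the 10, including those of the cluster, 12 could be tested. Of these, 4 were called higher and 2 lower (among all tested genes 22.8% and 23.3%). Mmp25, a membrane-anchored MMP of leukocytes, was called higher at 3.46, 3.15 and 3.58 CPM in DPCP and 1.91, 1.57 and 0.955 CPM in control libraries. Mmp28, the keratinocyte MMP epilysin, was at 10.6, 10.8 and 9.83 CPM across the DPCP libraries and at 21.6, 21.8 and 29.96 CPM in the control libraries (log2 fold change -1.23 ± 0.15, SE; edgeR adjusted p = 0.000328). It shares exon bases with a gene on the other strand, which makes its level uncertain. Mmp23, the other lower call, was at 11.5, 10.1 and 9.31 CPM across the DPCP libraries and at 13.3, 18.3 and 12.7 CPM in the control libraries (-0.52 ± 0.17, SE; edgeR adjusted p = 0.0331). It was not called without DPCP replicate 2, DPCP replicate 3 or control replicate 2 (log2 fold changes -0.51, -0.45 and -0.32).

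Of 4 other inhibitor genes that could be tested, 2 were called lower, 1 higher and 1 neither (among all tested genes 23.3% lower and 22.8% higher). Timp2, which inhibits MMPs and also helps Mmp14 to activate the Mmp2 precursor, was at 437, 402 and 289.5 CPM across the DPCP libraries and at 556, 832 and 602 CPM in the control libraries (log2 fold change -0.82 ± 0.19, SE; edgeR adjusted p = 0.00844). Reck, a membrane-anchored MMP inhibitor, was at 27.1, 20.7 and 18.0 CPM across the DPCP libraries and at 41.8, 58.5 and 45.5 CPM in the control libraries (-1.15 ± 0.18, SE; edgeR adjusted p = 0.00105). For both genes every DPCP library lay below every control library. Tfpi2, an inhibitor of plasmin and other serine proteases, rose by 1.29 ± 0.34 on the log2 scale (SE).

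Of 10 genes for activation and docking of MMP precursors, 9 could be tested. Of these, 6 were called higher and 1 lower (among all tested genes 22.8% and 23.3%). Furin, the convertase that opens the Mmp14 precursor, was at 179 ± 11.99 CPM in DPCP and 94.7 ± 9.54 CPM in control skin (SD, n = 3 each). Plaur, the urokinase receptor gene, was at 24.3, 75.9 and 41.5 CPM across the DPCP libraries and at 4.36, 6.23 and 3.79 CPM in the control libraries, again highest in DPCP replicate 2. Lcn2, which in humans forms a complex with MMP9 that shields it, was at 263 ± 92.6 CPM in DPCP and 6.46 ± 1.89 CPM in control skin (SD, n = 3 each). The 1 lower call, of the convertase gene Pcsk6 (-0.34 ± 0.12, SE; edgeR adjusted p = 0.0487), was lost without DPCP replicates 1 or 2 and without control replicates 2 or 3 (edgeR adjusted p = 0.113 to 0.178), with RLE scaling (0.0576) and in DESeq2 (0.0595). Plg, the plasminogen gene, had no counts in any library.

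The related ADAM and ADAMTS proteases shed membrane proteins or cut proteoglycans. They were called higher in 11 of 14 cases and lower in none (among all tested genes 22.8% and 23.3%). Adamts1 was at 156 ± 26.6 CPM in DPCP and 43.9 ± 2.55 CPM in control skin, and Adam12 at 27.6 ± 6.80 CPM in DPCP and 4.51 ± 0.726 CPM in control skin (SD, n = 3 each). Adamts9, a versican-cutting protease, rose by 2.22 ± 0.24 on the log2 scale (SE; edgeR adjusted p = 0.000175). Exons of Adamts9, Furin, Pcsk6, Col4a2 and Col7a1 overlap those of other genes, and reads there were not counted. The shared part was 9.18% and 2.82% of exon bases for the partners of Adamts9, so its level is uncertain. It was smaller for Pcsk6 (3.01%), Furin (1.29%), Col4a2 (0.65% and 0.33%) and Col7a1 (0.35%). Of 16 genes for matrix proteins that MMPs cut, 5 were called higher, 2 lower and 9 neither (among all tested genes 22.8% higher and 23.3% lower). Vcan, the gene of the proteoglycan versican, was at 113, 207 and 178 CPM across the DPCP libraries and at 38.4, 52.3 and 32.9 CPM in the control libraries. Col4a2, a chain of basement membrane collagen, rose by 1.28 ± 0.18 on the log2 scale (SE).

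Col7a1, the anchoring fibril collagen gene, and Col17a1, a collagen gene of hemidesmosomes, were the lower pair (log2 fold changes -1.33 ± 0.18 and -0.47 ± 0.11, SE). When DPCP replicate 1 was left out, the matrix list had 4 lower calls in place of 2. Col1a1, a fibrillar collagen gene that Mmp13 and Mmp14 products cut, was named after its values were seen. It was at 561, 541.5 and 552 CPM across the DPCP libraries and at 388, 670.2 and 373 CPM in the control libraries and was not called, and control replicate 2 was its highest library, as it was for Mmp2.

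Cytokines and transcription factors known to induce MMP genes were called higher in 10 of 14 cases and lower in none. These directions held 22.8% and 23.3% of all tested genes. Hbegf, an EGF receptor ligand, was at 50.3, 84.4 and 59.2 CPM across the DPCP libraries and at 6.40, 6.60 and 7.52 CPM in the control libraries. Il1b, the interleukin 1 beta gene, was at 99.99, 385 and 154.5 CPM across the DPCP libraries and at 3.54, 1.77 and 1.64 CPM in the control libraries, so that DPCP replicate 2 was highest here too. Its log2 fold change was 6.54 ± 0.60 (SE; edgeR adjusted p = 8.45e-05) and 5.79 without DPCP replicate 2, and an antisense gene shares 25 of its exon bases. Junb, a subunit of AP-1, was at 328 ± 53.1 CPM in DPCP and 114 ± 7.36 CPM in control skin (SD, n = 3 each).

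**Figure D5:**
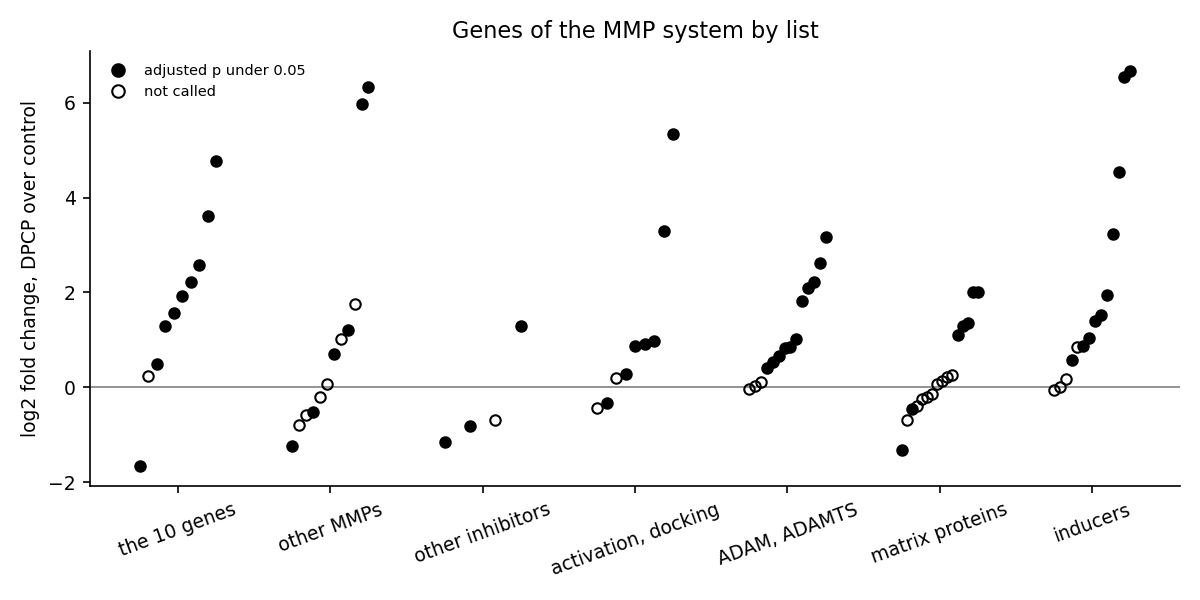
Log2 fold change of DPCP over control (edgeR) for each tested gene of the 10 genes and of 6 further lists, each point 1 gene, filled where the adjusted p was under 0.05. The ADAM and ADAMTS list (11 of 14) and the inducer list (10 of 14) hold only higher calls. The other inhibitors have 2 lower calls and 1 higher. Among all tested genes 22.8% were called higher and 23.3% lower.

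For the 9 called genes, the closest patterns over the 6 libraries were sought among 13684 tested genes, by the root mean square difference of log2 CPM after centring each gene on its own mean. Mmp12 was closest to Samsn1 (0.0401) and Slc2a3 (0.120), and Mmp13 to Nlrp3 (0.304) and Nlrp12 (0.370). Mmp10 was closest to Lars2 (0.258) and Rn7sk (0.322), a small nuclear RNA gene. Lars2 was at 358, 1850 and 394 CPM across the DPCP libraries and at 199, 143 and 242 CPM in the control libraries, so that DPCP replicate 2 stood out in it as in Mmp10 and in the ribosomal RNA gene CT010467.1. The part of that RNA in the Mmp10 value was not tested.

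Mmp3 was closest to Fgr (0.107) and Tnfrsf23 (0.145), Mmp9 to Plscr1 (0.0536) and Stx11 (0.0939), and Mmp14 to Map3k14 (0.0564) and Dchs1 (0.0573). Mmp19 was closest to Sema6b (0.0897) and Cryab (0.127). Timp1 was closest to Cd300lf (0.106) and Serpina3m (0.179), and Timp3 to Abca8b (0.0936) and Cuedc1 (0.101). Each likeness rests on the same 6 libraries and in large part on the group difference, and is given as a description.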

How the data were processed

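Per the labels' protocols, libraries of polyadenylated RNA from whole skin were prepared with a stranded kit and sequenced from both ends. The deposited values are raw read counts per gene, made by the authors with featureCounts 1.6.2 and Ensembl GRCm38 release 102, per the file headers, with no option for strand, pairs or multiple alignments. Reads over exons of more than 1 gene were therefore dropped, which among the members touches Mmp12, Mmp19 and Timp3. The submitters' processing notes also name the aligner HISAT2 2.2.1 with build mm10, the trimmer Trimmomatic 0.36, StringTie 2.2.1 and DESeq2 1.34.0. Symbols came from GENCODE M21 of the same build.

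Counts were tested with edgeR 4.0.16 (R 4.3.3, filterByExpr, TMM, quasi-likelihood F-test, Benjamini-Hochberg over all 18259 genes tested, threshold 0.05). The code was first tried on simulated data in which far fewer genes differed than were called here. That trial therefore does not measure the rate of false calls in these data. CPM uses TMM-scaled library sizes. Standard errors are the log2 fold change over the square root of F. Alternatives were RLE, upper-quartile and no scaling, 2 count filters, DESeq2 1.42.0, limma voom 3.58.1, a replicate block and leaving out each library. Sums and ratios had exact permutation tests.

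Members and gene lists were chosen with earlier results of these data known. Named genes are the 10, up to 3 called in each direction from each list by smallest p, and the 2 closest patterns of each called gene. One gene that this rule names is not reported here.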

Additional observations from a re-analysis of the deposited data

How the results depend on the processing

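Over the 14 alternatives of the gene test, 6 to 8 of the 10 genes were called higher and 1 lower, and none of the 10 changed sign. Without gene length, in CPM, the log2 difference of the TIMP sum (Timp1 and Timp3 only) was -0.74 and that of the MMP to TIMP ratio 1.65. These are the reverse of their TPM directions, because Timp3 is the longer gene in the table. Leaving out 1 library gave 0.79 to 1.12 for the MMP sum, 1.02 to 1.40 for the TIMP sum, -0.38 to -0.10 for their ratio and 5.999 to 6.80 for Timp1 over Timp3, on the log2 scale. The labels do not say whether replicate numbers pair the samples. Deviations from the group means correlated at 0.046, 0.027 and 0.112 between same-numbered libraries and at -0.143 to 0.099 between the others. With 3 libraries in each group these values cannot decide it. With the replicate block 8 of the 10 genes were called higher and 1 lower, and the log2 differences of the sums were as in the unpaired values (0.94 and 1.152; exact sign-flip p = 0.25, the smallest that 3 pairs allow). The macrophage list, with 4 higher calls, had 9 with the replicate block and 8 without a count filter. Mmp1b has no fold change without control replicate 3, since the other control libraries had 0 counts. Among the 10 genes and those named from the lists by rule, the calls lost under some alternative were those of Mmp10, Mmp14, Mmp23 and Pcsk6, and Mmp2 gained one. Mmp10 had as few as 18 counts in a control library, which limits the precision of its fold change.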
